A study of Homo sapiens with 18 samples.

Results

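The CLK, SRPK and DYRK1 protein kinases, which phosphorylate splicing factors, were followed at the RNA level in OCI-AML1 cells, a human acute myeloid leukemia cell line. The 8 genes CLK1, CLK2, CLK3, CLK4, SRPK1, SRPK2, DYRK1A and DYRK1B were taken by symbol from 60609 gene identifiers, and all 8 were among the 20920 genes that passed the filter on low counts. They were chosen by family and by their read counts in these libraries, whose changes against DMSO were already known, so their transcript levels and changes are given as a description. Cultures labelled wild type were given AML874 or SEL120-34A, an inhibitor of the Mediator kinases CDK8 and CDK19, or the vehicle DMSO, and were harvested at 8 h or 24 h. Each of the 6 combinations of agent and time had 3 polyA-selected RNA-seq libraries, 18 in all. The labels give no dose, describe AML874 by its code name alone, and do not say whether replicates were separate cultures, so p-values measure only the spread between these libraries. All groups are 1 cell line, and in bulk RNA a smaller share of cells making a transcript cannot be told apart from less of it per cell.

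SR proteins are splicing factors with a tail rich in arginine and serine. SRPK1 and SRPK2, which are mostly cytoplasmic, phosphorylate that tail and so send SR proteins into the nucleus, where the CLK kinases add further phosphates and release them from nuclear speckles to sites of splicing. CLK1 also shapes the splicing of its own transcript: skipping of exon 4, or retention of the introns beside it, removes the reading frame of the catalytic domain, and the exon is found in CLK4 too. DYRK1A and DYRK1B belong to the same larger kinase group. DYRK1A phosphorylates splicing factors and other nuclear proteins, and also LIN52, which brings the DREAM complex together to silence cell cycle genes.

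The libraries held 98975944 to 142496541 reverse-strand counts in genes, so a count of 0 allows up to 3 counts, which is 0.0211 to 0.0303 CPM (counts scaled to a common library size). This limit covers counting error only. Of 8 myeloid markers, SPI1 lay at 174 to 255 TPM (a level scaled for transcript length and depth), CEBPA at 61.0 to 110 TPM and CD33 at 46.3 to 89.3 TPM, whereas ANPEP did not pass 0.21 TPM. CD3D, CD3E, MS4A1, HBB, ALAS2 and CDH5 were at or near 0 (at most 0.08 TPM). The B cell gene CD79A reached 1.5 TPM, and PECAM1, which leukocytes also make, lay at 14.8 to 25.4 TPM. Hypoxia-inducible factor (HIF) targets spread widely at 8 h: the mean log2 CPM of 18 such genes ran 5.20 to 5.28 in AML874 libraries, 5.05 to 5.81 in SEL120-34A libraries and 5.38 to 6.15 in DMSO libraries. At 24 h it ran 5.69 to 6.04 in AML874 libraries, 5.74 to 6.25 in SEL120-34A libraries and 6.15 to 6.42 in DMSO libraries. Its part in the kinase values was not tested. All fits were repeated without the 4 libraries farthest from their group mean in these genes, replicates 2 and 3 of SEL120-34A at 8 h and of DMSO at 8 h, and the 8 h values and each lost call are given beside the kinase concerned.

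Per unit of transcript length, 4 of the kinases stood well above the others. In DMSO at 8 h SRPK1 averaged 79.6 ± 1.60 TPM, CLK3 76.8 ± 3.43 TPM, CLK2 74.7 ± 0.255 TPM and CLK1 52.3 ± 1.56 TPM (SD, n = 3 each). SRPK2 averaged 25.8 ± 0.638 TPM, DYRK1A 19.0 ± 0.610 TPM, CLK4 15.0 ± 0.293 TPM and DYRK1B 1.46 ± 0.0666 TPM in the same libraries. In that order the ranges of SRPK1 and CLK3 overlapped, as did those of CLK3 and CLK2, and every other neighbouring pair was apart. In SEL120-34A at 24 h the order was different, with CLK3 at 102 ± 2.78 TPM, CLK1 at 89.9 ± 1.55 TPM, SRPK1 at 73.3 ± 3.09 TPM and CLK2 at 72.1 ± 2.92 TPM. Here CLK1 lay above SRPK1 and CLK2 in all 3 libraries, whereas the ranges of SRPK1 and CLK2 overlapped. DYRK1B, with 279 to 443 counts a library, was the least abundant and so the least precisely measured of the 8.

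**Figure D1:**
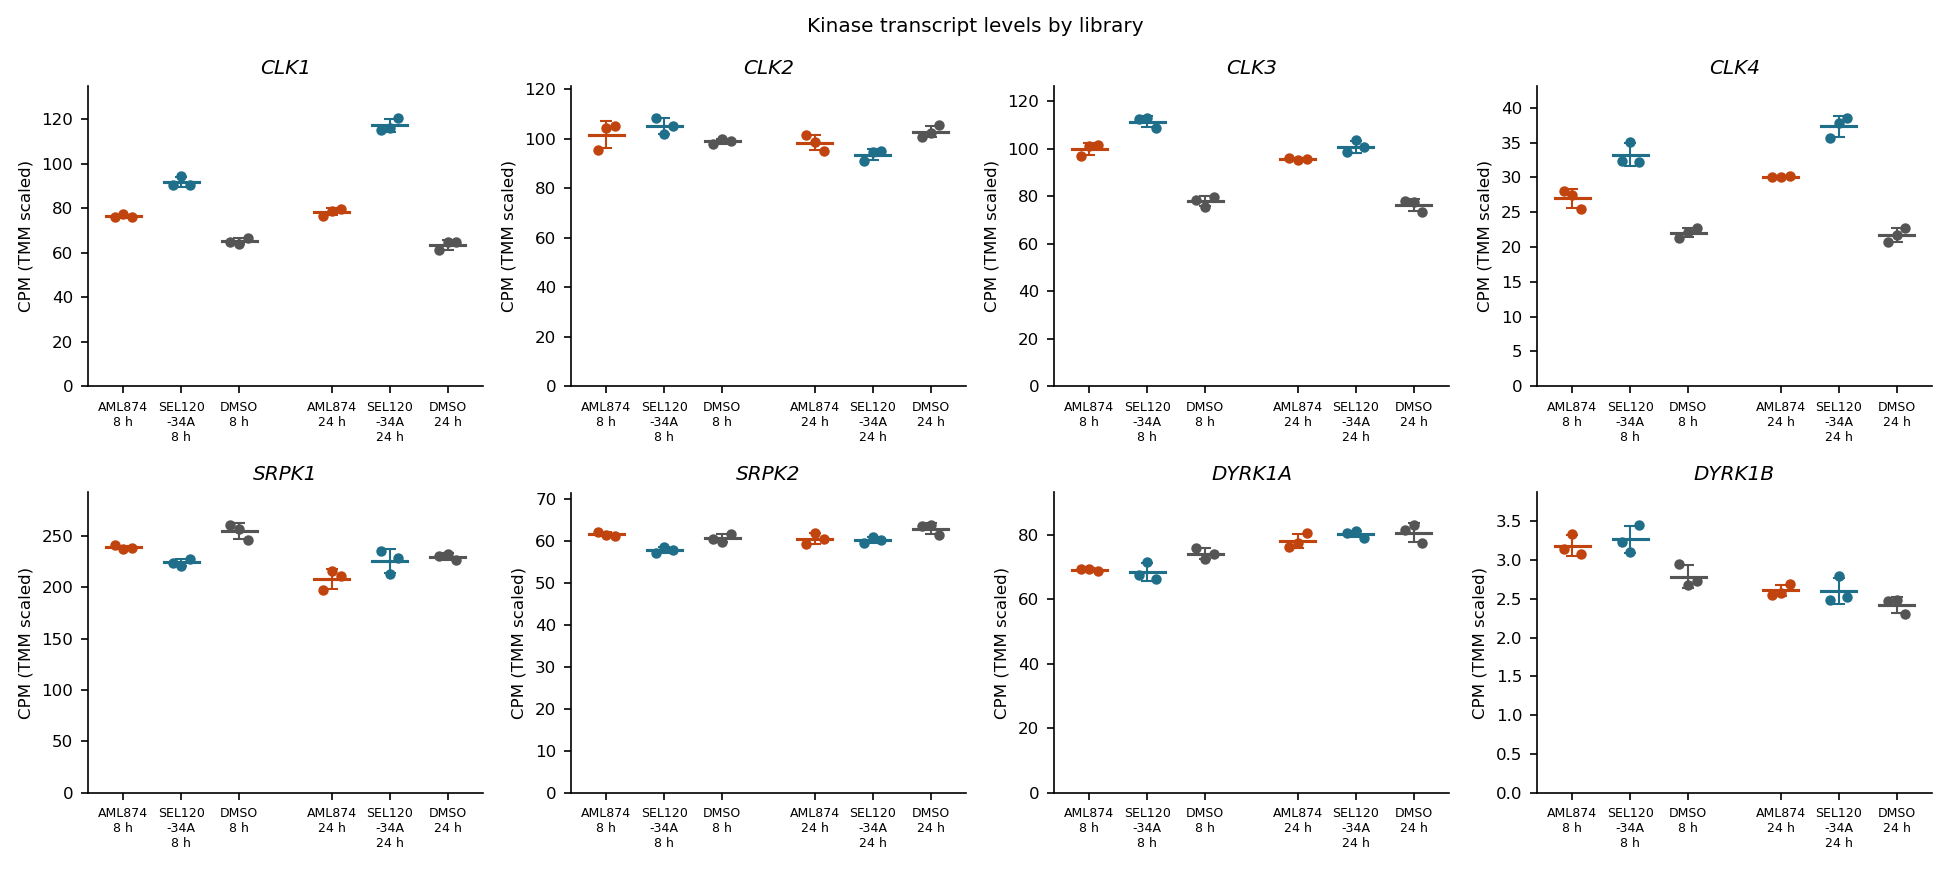
Transcript level of each kinase in every library (vertical axis, CPM after TMM scaling, from 0) by compound and time (horizontal axis); points are libraries, long bars group means and error bars SD of 3 libraries. CLK1, CLK3 and CLK4 lie above DMSO in both compounds at both times, and CLK1 reaches 115 to 120.5 CPM with SEL120-34A at 24 h.

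A gene was called when its Benjamini-Hochberg adjusted p in edgeR's quasi-likelihood test was under 0.05 over all 20920 genes. With AML874 at 8 h 5 of the 8 kinases were called beside 39.6% of all genes, with 3 of them higher (19.7% of all genes) and 2 lower (19.9%). With AML874 at 24 h 4 were called beside 46.8% of all genes, with 3 higher (23.1%) and 1 lower (23.7%). With SEL120-34A at 8 h all 8 were called beside 45.1% of all genes, with 5 higher (22.4%) and 3 lower (22.6%), and this count was 5 without the 4 libraries above. With SEL120-34A at 24 h 4 were called beside 37.7% of all genes, with 3 higher (19.1%) and 1 lower (18.6%). CPM ranges of the 3 libraries were apart from DMSO in 48.7% of all genes for AML874 at 8 h, 53.5% for AML874 at 24 h, 51.8% for SEL120-34A at 8 h and 45.8% for SEL120-34A at 24 h. Of all genes called at 8 h, 49.8% were higher for AML874 and 49.8% for SEL120-34A, and with library totals in place of TMM scaling these shares were 63.5% and 66.5%. The compounds share their DMSO libraries at each time, so their comparisons with DMSO are given side by side.

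CLK1 (ENSG00000013441.16, chr2:200853009-200864744, minus strand, GRCh38) was higher with both compounds at both times. At 8 h it had 75.9, 77.2 and 76.2 CPM in AML874 libraries and 90.3, 94.3 and 90.5 CPM in SEL120-34A libraries, against 65.0, 63.8 and 66.8 CPM in DMSO libraries. At 24 h it had 76.6, 78.9 and 79.7 CPM in AML874 libraries and 115, 116 and 120.5 CPM in SEL120-34A libraries, against 61.0, 64.8 and 64.9 CPM in DMSO libraries. No compound library reached down to the DMSO range at its time, and SEL120-34A at 24 h stood above all other groups. The log2 changes against DMSO were 0.23 ± 0.03 (SE) for AML874 at 8 h, 0.30 ± 0.03 for AML874 at 24 h, 0.49 ± 0.03 for SEL120-34A at 8 h and 0.88 ± 0.03 for SEL120-34A at 24 h. The last is a 1.84-fold level. Among the 6 groups only neighbours AML874 at 24 h and AML874 at 8 h, and DMSO at 8 h and DMSO at 24 h, overlapped in range.

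CLK4 (ENSG00000113240.13, chr5:178602664-178630615, minus strand), the closest relative of CLK1, was likewise higher in every compound library than in DMSO at the same time. At 8 h it had 28.1, 27.5 and 25.5 CPM in AML874 libraries and 32.4, 35.2 and 32.2 CPM in SEL120-34A libraries, against 21.3, 22.2 and 22.7 CPM in DMSO libraries. CLK4 at 24 h had 30.0, 30.0 and 30.2 CPM in AML874 libraries and 35.7, 37.8 and 38.5 CPM in SEL120-34A libraries, against 20.7, 21.7 and 22.8 CPM in DMSO libraries. The 2 DMSO groups overlapped and all other neighbours in the order of group means were apart. The log2 changes against DMSO were 0.29 ± 0.04 for AML874 at 8 h, 0.47 ± 0.04 for AML874 at 24 h, 0.59 ± 0.04 for SEL120-34A at 8 h and 0.78 ± 0.04 for SEL120-34A at 24 h, the last a 1.72-fold level. CLK4 overlaps the 7SK pseudogene RN7SKP70 on the same strand, with which it shares 0.99% of its 75-base words.

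CLK3 (ENSG00000179335.18, chr15:74598500-74645414, plus strand) was also higher with both compounds, but its SEL120-34A level was higher at 8 h than at 24 h. At 8 h it had 97.0, 101 and 101 CPM in AML874 libraries and 112, 113 and 109 CPM in SEL120-34A libraries, against 78.2, 75.5 and 79.8 CPM in DMSO libraries. CLK3 at 24 h had 95.8, 95.3 and 95.8 CPM in AML874 libraries and 98.4, 103 and 101 CPM in SEL120-34A libraries, against 78.0, 77.7 and 73.2 CPM in DMSO libraries. The compound and DMSO ranges did not overlap at either time. The log2 changes against DMSO were 0.36 ± 0.03 for AML874 at 8 h, 0.33 ± 0.03 for AML874 at 24 h, 0.52 ± 0.03 for SEL120-34A at 8 h and 0.40 ± 0.03 for SEL120-34A at 24 h. CLK3 overlaps EDC3 on the opposite strand, and forward-strand counts at CLK3 were 16.5 to 25.2% of its reverse counts. CLK3 kept its calls in unstranded counts.

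Without the 4 libraries that stood apart in HIF targets, the log2 changes of CLK1 were 0.24 ± 0.04 for AML874 at 8 h and 0.48 ± 0.05 for SEL120-34A at 8 h. Those of CLK4 were 0.34 ± 0.06 for AML874 at 8 h and 0.61 ± 0.07 for SEL120-34A at 8 h, and those of CLK3 0.36 ± 0.04 for AML874 at 8 h and 0.53 ± 0.05 for SEL120-34A at 8 h. SEL120-34A and DMSO then had 1 library each at 8 h, which the fit takes to vary like the other groups.

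CLK2 (ENSG00000176444.19, chr1:155262868-155278491, minus strand), a further kinase of SR proteins, did not share the pattern of its 3 relatives. At 8 h it had 95.4, 104 and 105 CPM in AML874 libraries and 108, 102 and 105 CPM in SEL120-34A libraries, against 98.0, 99.97 and 99.2 CPM in DMSO libraries. At 24 h it had 101, 98.6 and 95.2 CPM in AML874 libraries and 90.9, 94.4 and 95.2 CPM in SEL120-34A libraries, against 101, 102 and 105 CPM in DMSO libraries. SEL120-34A libraries lay above the DMSO range at 8 h and below it at 24 h, and AML874 libraries overlapped DMSO at both times. The log2 changes against DMSO were 0.04 ± 0.03 for AML874 at 8 h, -0.06 ± 0.03 for AML874 at 24 h, 0.09 ± 0.03 for SEL120-34A at 8 h and -0.14 ± 0.03 for SEL120-34A at 24 h. The call at 8 h was lost in 10 of 28 alternative settings, among them leaving out any 1 of the 3 DMSO libraries or replicate 1 or 3 of SEL120-34A at that time. It was also lost without the 4 libraries that stood apart in HIF targets, where the change was 0.15 ± 0.06 (edgeR adjusted p = 0.0579). CLK2 shares 1.68% of its 75-base words with the pseudogene CLK2P1.

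SRPK1 (ENSG00000096063.16, chr6:35832966-35921342, minus strand), the cytoplasmic SR protein kinase with the most counts of the 8 genes, was lower with AML874 at both times and with SEL120-34A at 8 h. At 8 h it had 241, 237 and 238 CPM in AML874 libraries and 223, 221 and 228 CPM in SEL120-34A libraries, against 261, 257 and 246 CPM in DMSO libraries. SRPK1 at 24 h had 198, 216 and 211 CPM in AML874 libraries and 235, 213 and 229 CPM in SEL120-34A libraries, against 230.0, 233 and 226 CPM in DMSO libraries. SEL120-34A overlapped DMSO at 24 h, and the 3 other compound groups lay below DMSO in every library. The log2 changes against DMSO were -0.09 ± 0.03 for AML874 at 8 h, -0.14 ± 0.03 for AML874 at 24 h, -0.18 ± 0.03 for SEL120-34A at 8 h and -0.03 ± 0.03 for SEL120-34A at 24 h. With library totals in place of TMM scaling the 8 h change with AML874 was -0.05 and no longer called. The 8 h changes of SRPK1 were -0.12 ± 0.05 for AML874 and -0.22 ± 0.06 for SEL120-34A, both called, without the 4 libraries that stood apart in HIF targets.

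SRPK2 (ENSG00000135250.17, chr7:105110704-105399308, minus strand), which has the same substrates, moved little in counts. Its libraries ran from 57.3 to 64.0 CPM over the whole series. The log2 changes against DMSO were 0.02 ± 0.03 for AML874 at 8 h, -0.05 ± 0.03 for AML874 at 24 h, -0.07 ± 0.03 for SEL120-34A at 8 h and -0.06 ± 0.03 for SEL120-34A at 24 h. Only SEL120-34A at 8 h was called, and 11 of 28 alternative settings lost that call, among them library totals, unstranded counts, the replicate block, and leaving out replicate 3 of DMSO or replicate 1 of SEL120-34A at 8 h. It was lost too without the 4 libraries that stood apart in HIF targets, with a change of -0.08 ± 0.05 (edgeR adjusted p = 0.339). Forward-strand counts at SRPK2, which overlaps KMT2E on the opposite strand, were 6.96 to 11.6% of its reverse counts.

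DYRK1A (ENSG00000157540.21, chr21:37365573-37526358, plus strand) had 68.7 to 69.5 CPM in AML874 libraries and 66.2 to 71.4 CPM in SEL120-34A libraries at 8 h, against 72.4 to 75.9 CPM in DMSO libraries. Both compound groups lay below DMSO at that time, with log2 changes of -0.10 ± 0.03 for AML874 and -0.12 ± 0.03 for SEL120-34A, and both calls were lost with library totals. Both were kept without the 4 libraries that stood apart in HIF targets, at -0.13 ± 0.04 for AML874 and -0.16 ± 0.05 for SEL120-34A. At 24 h DYRK1A had 76.2 to 80.5 CPM in AML874 libraries and 79.1 to 81.1 CPM in SEL120-34A libraries, against 77.4 to 83.2 CPM in DMSO libraries, which overlapped. DYRK1B (ENSG00000105204.14, chr19:39825350-39834201, minus strand), the paralog of DYRK1A, had 3.08 to 3.34 CPM in AML874 libraries and 3.11 to 3.46 CPM in SEL120-34A libraries at 8 h, against 2.68 to 2.96 CPM in DMSO libraries. Its log2 changes at 8 h were 0.20 ± 0.09 for AML874, which was not called, and 0.23 ± 0.09 for SEL120-34A, which was called. Without the 4 libraries that stood apart in HIF targets the second was 0.14 ± 0.16 and not called, and leaving out replicate 2 or 3 of DMSO or replicate 1 or 3 of SEL120-34A at 8 h also ended it. Over the 18 libraries DYRK1A and DYRK1B ran in opposite directions, with a Pearson r of -0.84 that pools the 6 groups and carries no test.

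**Figure D2:**
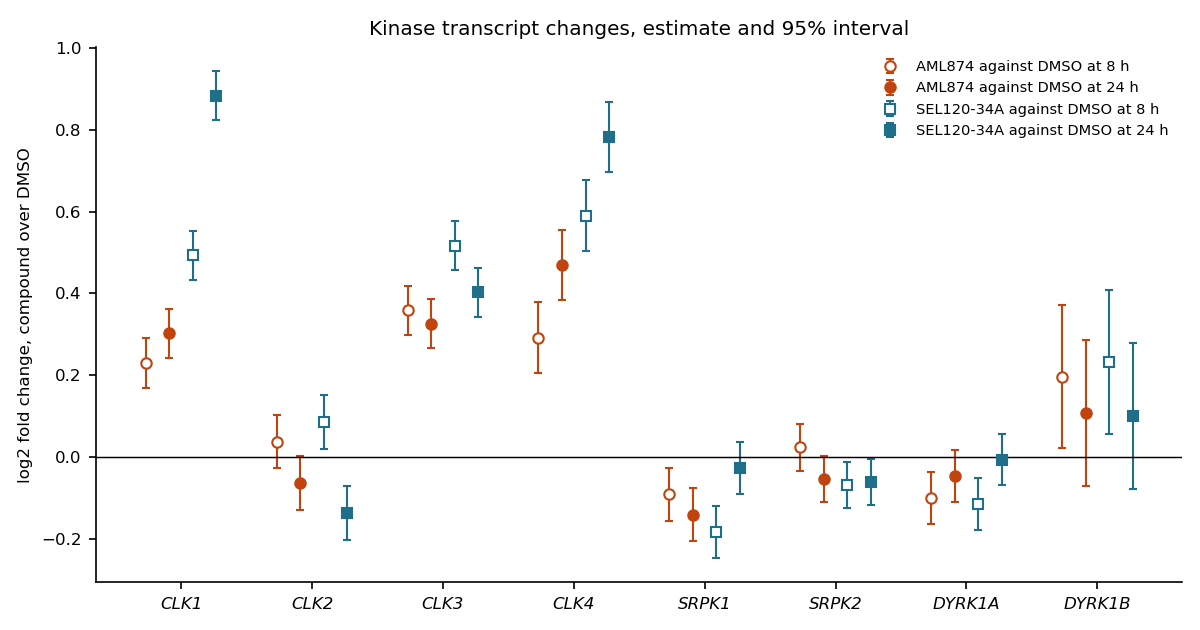
Log2 fold change of each kinase, compound over DMSO (vertical axis), with 95% intervals from edgeR; circles are AML874, squares SEL120-34A, open symbols 8 h and filled symbols 24 h. CLK1, CLK3 and CLK4 lie above 0 in all 4 comparisons, from 0.23 for CLK1 with AML874 at 8 h to 0.88 for CLK1 with SEL120-34A at 24 h.

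Set directly against SEL120-34A, AML874 gave lower levels of CLK1 and CLK4 at both times. At 8 h the log2 differences, AML874 minus SEL120-34A, were -0.26 ± 0.03 for CLK1, -0.30 ± 0.04 for CLK4 and -0.16 ± 0.03 for CLK3, all called, with library ranges apart (43.2% of all genes). SRPK1 and SRPK2 were higher with AML874 at that time, each by 0.09 ± 0.03, so 5 of 8 kinases were called beside 31.2% of all genes, with 2 higher (16%) and 3 lower (15.2%). Without the 4 libraries that stood apart in HIF targets these SRPK differences were not called, nor without replicate 1 of AML874 or of SEL120-34A at 8 h. At 24 h the differences were -0.58 ± 0.03 for CLK1 and -0.31 ± 0.04 for CLK4, with ranges apart (32.5% of all genes), and -0.11 ± 0.03 for SRPK1, whose ranges overlapped. These 3 of 8, all lower (11.6% of all genes, against 8% higher), were called beside 19.6% of all genes, and SRPK1 was not called without replicate 1 of AML874 or of SEL120-34A at 24 h, or with only those groups in the fit. CLK3 was not called at 24 h, where its difference was -0.08 with a 95% interval of -0.14 to -0.02, whereas DESeq2 called it. CLK2 (0.07, interval 0.01 to 0.14) and DYRK1A (-0.04, interval -0.10 to 0.02) were not called at 24 h either. The doses behind these differences are not given.

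The compound effects also differed between the times. For SEL120-34A, the change at 24 h minus that at 8 h was 0.39 ± 0.04 for CLK1, 0.19 ± 0.06 for CLK4, 0.16 ± 0.04 for SRPK1, -0.11 ± 0.04 for CLK3 and -0.22 ± 0.05 for CLK2, so 5 of 8 kinases were called beside 27.3% of all genes. For AML874 only CLK4 was called, at 0.18 ± 0.06, beside 23.6% of all genes. Without the 4 libraries that stood apart in HIF targets CLK1 and CLK2 kept their calls for SEL120-34A, and CLK3, CLK4 and SRPK1 lost them, as CLK4 did for AML874. For SEL120-34A, the CLK3 call was also lost without replicate 1 or 2 of SEL120-34A or of DMSO at 8 h, replicate 1 or 3 of SEL120-34A at 24 h, or replicate 1 or 2 of DMSO at 24 h. That of CLK4 was lost without replicate 1 or 3 of SEL120-34A at 8 h, replicate 3 of SEL120-34A at 24 h or replicate 1 of DMSO at 24 h. In DMSO alone, 24 h over 8 h, SRPK1 was lower by a log2 difference of -0.15 ± 0.03 and DYRK1A higher by 0.12 ± 0.03. DYRK1A was at 0.09 ± 0.04 and not called without the 4 libraries. These 2 of 8 calls stood beside 42.5% of all genes (19.8% higher and 22.7% lower), with ranges apart in both, as in 50% of all genes, and CLK1, CLK3 and CLK4 were not called with time (-0.04, -0.03 and -0.02).

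The deposited gene results also give, for each gene and library, the mean length of its annotated transcripts weighted by their estimated abundance. This weighted length moves when the balance shifts between long and short transcripts of a gene, and it played no part in the listing of the kinases. It was tested with limma on the log2 scale over 11381 genes. The annotation holds 15 transcripts of CLK1, 435 to 3208 bases long, of which 4 are coding, 8 carry a retained intron and 2 are marked for nonsense-mediated decay. It holds 15 transcripts of CLK4 too, 572 to 3722 bases long, of which 4 are coding and 7 carry a retained intron. Exon 4 of both genes is shown with the flanking 20 intron bases on each side, since transcripts that keep those introns run through it. Capitals mark the exon of 91 bases at chr2:200860125-200860215 for CLK1 and chr5:178617344-178617434 for CLK4, read 5′ to 3′ on the minus strand of GRCh38 with exons from GENCODE 29.
CLK1 exon 4: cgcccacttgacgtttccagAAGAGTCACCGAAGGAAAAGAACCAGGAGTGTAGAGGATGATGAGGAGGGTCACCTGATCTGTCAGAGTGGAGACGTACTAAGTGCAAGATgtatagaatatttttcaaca
CLK4 exon 4: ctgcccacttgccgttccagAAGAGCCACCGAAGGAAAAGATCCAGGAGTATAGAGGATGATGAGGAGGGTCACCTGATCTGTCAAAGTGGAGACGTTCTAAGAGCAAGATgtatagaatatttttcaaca
Compared position by position with no gaps, the exons were identical at 85 of 91 bases (93.4%). The 20 intron bases before them matched at 11 and the 20 after them at 20. A base gained or lost in either gene lowers such a count, and no alignment with gaps was made.

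**Figure D3:**
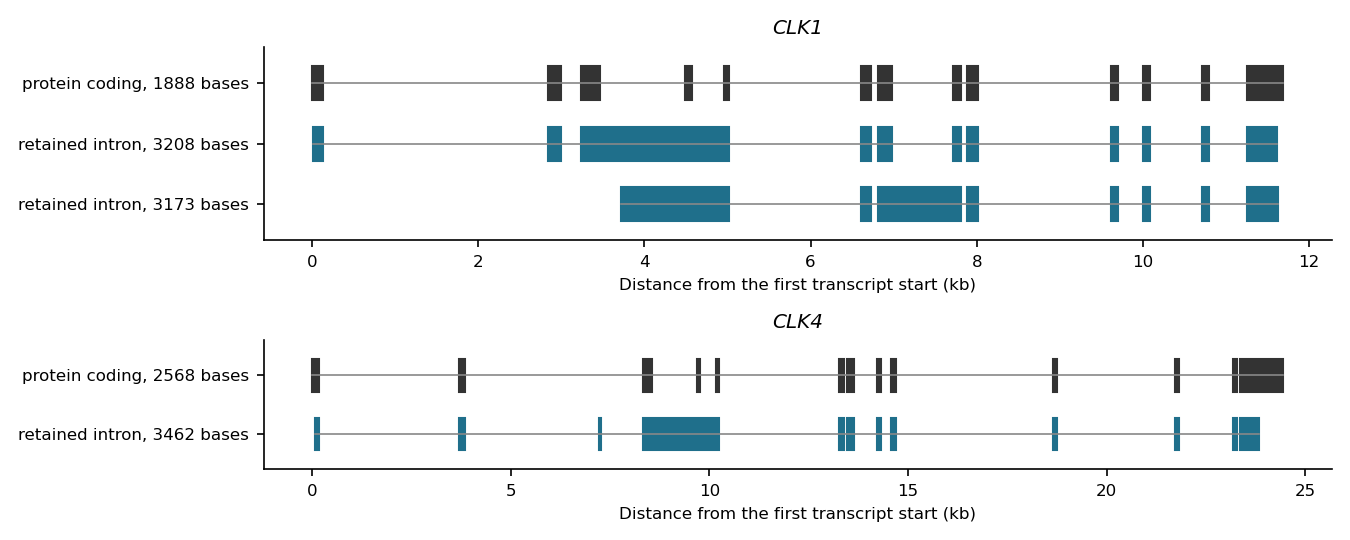
Exons (boxes) and introns (lines) of a coding transcript and of long retained-intron transcripts of CLK1 and CLK4, in GENCODE 29, drawn 5′ to 3′ by distance from the first transcript start (horizontal axis, kb), with each transcript's type and length at the left. In both genes a retained-intron transcript runs unspliced through exon 4 and the introns beside it, and is longer (3208 and 3462 bases) than the coding transcript shown (1888 and 2568 bases).

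CLK1 transcripts were longer on average with both compounds at 8 h. The weighted length of CLK1 was 1861, 1787 and 1854 bases in AML874 libraries and 1789, 1830 and 1819 bases in SEL120-34A libraries at 8 h, against 1649, 1682 and 1684 bases in DMSO libraries. At 24 h it was 1660, 1754 and 1771 bases in AML874 libraries and 1787, 1849 and 1848 bases in SEL120-34A libraries, against 1567, 1657 and 1695 bases in DMSO libraries. AML874 at 24 h overlapped DMSO, and the 3 other compound groups lay above it in every library. The log2 difference was 0.13 ± 0.03 for AML874 at 8 h (limma adjusted p = 0.0147), 0.12 ± 0.03 for SEL120-34A at 8 h (limma adjusted p = 0.0166) and 0.16 ± 0.03 for SEL120-34A at 24 h (limma adjusted p = 0.012). For AML874 at 24 h it was 0.08 ± 0.03 (limma adjusted p = 0.229). Without the 4 libraries that stood apart in HIF targets, CLK1 differed by 0.15 ± 0.05 for AML874 and 0.12 ± 0.06 for SEL120-34A at 8 h. Neither was called. The SEL120-34A call at 24 h was lost too, but its difference was still 0.16 ± 0.03. All 4 are 8 h libraries, so at 24 h only the shared estimate of the spread and the adjustment over genes changed.

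CLK4 showed the same set of calls. Its weighted length was 2250, 2361 and 2217 bases in AML874 libraries and 2158, 2230 and 2260 bases in SEL120-34A libraries at 8 h, against 1946, 2073 and 2056 bases in DMSO libraries. The 24 h values were 2157, 1970 and 2024 bases in AML874 libraries and 2246, 2247 and 2164 bases in SEL120-34A libraries, against 2008, 1884 and 1975 bases in DMSO libraries. Again only AML874 at 24 h overlapped DMSO. The log2 difference was 0.17 ± 0.04 for AML874 at 8 h (limma adjusted p = 0.0159), 0.13 ± 0.04 for SEL120-34A at 8 h (limma adjusted p = 0.0335), 0.18 ± 0.04 for SEL120-34A at 24 h (limma adjusted p = 0.0222) and 0.07 ± 0.04 for AML874 at 24 h (limma adjusted p = 0.448). The 3 calls of CLK4 were lost as well without those 4 libraries. Its 8 h differences were then 0.23 ± 0.06 for AML874 and 0.15 ± 0.07 for SEL120-34A. At 24 h, where no library had been removed, the SEL120-34A difference stayed at 0.18 ± 0.04.

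SRPK2 moved the other way. Its weighted length was 3003, 2934 and 2984 bases in AML874 libraries and 2905, 2864 and 2856 bases in SEL120-34A libraries at 8 h, against 3053, 3071 and 3053 bases in DMSO libraries. Both compound groups lay below DMSO at that time. With SEL120-34A the log2 difference at 8 h was -0.09 ± 0.01 (limma adjusted p = 0.00113), and with AML874 it was -0.04 ± 0.01 (limma adjusted p = 0.131). The SEL120-34A difference was -0.07 ± 0.03 (limma adjusted p = 0.271), and no longer called, without the 4 libraries. The 24 h values were 3024 to 3107 bases in AML874 libraries and 3043 to 3156 bases in SEL120-34A libraries, against 3058 to 3134 bases in DMSO libraries, which overlapped. TPM divides by this length, and SRPK2 at 8 h had 27.6 to 28.5 TPM in AML874 libraries and 26.8 to 28.3 TPM in SEL120-34A libraries, against 25.2 to 26.5 TPM in DMSO libraries, so that its TPM lay above DMSO where its CPM did not.

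No other kinase was called for weighted length in any comparison. Beside these counts, weighted length was called in 6.99% of genes for AML874 at 8 h (5.61% longer), where 2 of 8 kinases were, and in 2.8% for AML874 at 24 h, where none was. It was called in 15% of genes for SEL120-34A at 8 h (10.6% longer and 4.46% shorter), where 3 of 8 kinases were, and in 2.88% for SEL120-34A at 24 h (2.11% longer), where 2 of 8 were. No kinase length was called in any comparison without the 4 libraries that stood apart in HIF targets. None of these 4 is a 24 h library, so the lost 24 h calls do not bear on them. CLK1 and CLK4 kept the direction of their 3 calls each in all 23 alternative settings, but dropping 1 library often ended a call too: for SEL120-34A at 8 h without replicate 1 of DMSO, the limma adjusted p was 0.0604 for CLK1 and 0.132 for CLK4. The libraries that ended each call are named with the processing alternatives. SRPK2 at 8 h with SEL120-34A stayed called in the other 22. Between the compounds no kinase length was called at 8 h or 24 h, where 4.1% and 0.272% of genes were. At 24 h the log2 difference, AML874 minus SEL120-34A, was -0.11 ± 0.04 for CLK4 (limma adjusted p = 0.269) and -0.08 ± 0.03 for CLK1 (limma adjusted p = 0.33), with ranges apart in both genes. Whether the length effects differed between the times was not tested. With time in DMSO, 3.06% of genes and no kinase were called. The gene-level files do not say which transcript moved: of the 4 CLK1 transcripts above its highest weighted length, 2 carry a retained intron and 2 are coding, and of its 7 transcripts under 1000 bases 6 carry a retained intron.

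**Figure D4:**
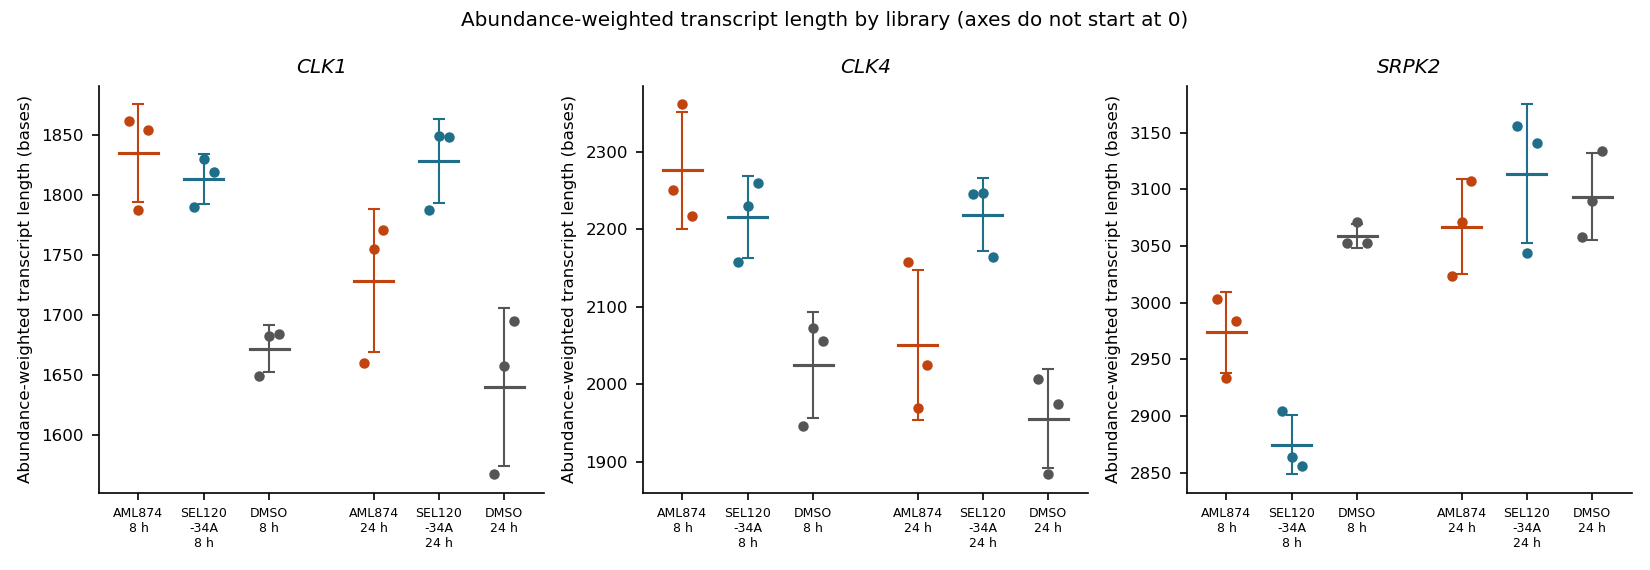
Abundance-weighted transcript length (vertical axis, bases, not from 0) of CLK1, CLK4 and SRPK2 in every library by compound and time (horizontal axis); points are libraries, long bars group means and error bars SD of 3 libraries. CLK1 and CLK4 lie above DMSO in AML874 at 8 h and SEL120-34A at both times, and SRPK2 lies below DMSO in both compounds at 8 h.

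The 3 kinases that were higher in all 4 comparisons hold a short motif in common before a start site. The 120 bases before a RefSeq start (GRCh38.p14) are shown for CLK1, CLK3 and CLK4, with CLK2 for contrast, and capitals mark the half-site of the cAMP response element (TGACG or its reverse complement CGTCA), a motif chosen after the sequences were read. Positions are chr2:200864659-200864778, minus strand, for CLK1, chr15:74615716-74615835, plus strand, for CLK3, chr5:178627051-178627170, minus strand, for CLK4 and chr1:155273505-155273624, minus strand, for CLK2.
CLK1 promoter: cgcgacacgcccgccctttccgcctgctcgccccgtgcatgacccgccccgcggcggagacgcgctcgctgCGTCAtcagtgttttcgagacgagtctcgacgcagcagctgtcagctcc
CLK3 promoter: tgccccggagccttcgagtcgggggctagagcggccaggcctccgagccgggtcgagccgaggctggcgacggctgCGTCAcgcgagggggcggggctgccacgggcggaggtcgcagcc
CLK4 promoter: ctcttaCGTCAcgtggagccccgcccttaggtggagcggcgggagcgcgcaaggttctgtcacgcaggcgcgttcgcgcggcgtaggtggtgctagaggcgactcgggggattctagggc
CLK2 promoter: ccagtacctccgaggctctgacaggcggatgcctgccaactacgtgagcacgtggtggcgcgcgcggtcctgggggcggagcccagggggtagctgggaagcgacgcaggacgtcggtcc
The half-site began 49 bases before the start in CLK1, 44 in CLK3 and 114 in CLK4. Searched on both strands in the 250 bases before each start, it stood in 21.2% of 35116 RefSeq windows and in 6 of the 18 windows of the 8 kinases, in CLK1, CLK3, CLK4, DYRK1A and SRPK2. These shares are per window, and genes differ in how many starts they have. The windows of CLK1 overlap and count the same half-site again, and a further CLK3 start, not shown, has none. DYRK1A and SRPK2, which were not higher, hold it too, and in DYRK1A it began 50 and 42 bases before a start. The full element TGACGTCA stood in 1.65% of windows and in no kinase window, and GGGCGG, the SP1 motif, in 42.6% of windows and in 11 of the 18. A match of this kind is a description of the letters.

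Over the 18 libraries CLK1 and CLK4 ran together in log2 CPM, with a Pearson r of 0.95, and CLK4 was the gene most like CLK1 of 9925 searched, followed by FCGR2A (0.93) and CYBB (0.93). CLK1 was likewise the gene most like CLK4, followed by RPL22 (0.95) and TP53I3 (0.94). CLK3 was most like GPR85, PIK3R5 and SUCNR1 (0.97 each), with an r of 0.85 to CLK4 and 0.76 to CLK1. CLK2 had no gene above 0.81 (KRIT1, then PKD1 at 0.81 and SCAMP4 at 0.80). SRPK1 was most like NUP98 (0.99), TXNRD1 (0.97) and POLR3B (0.95), and SRPK2 most like ITPR1 (0.91), LRP5 (0.91) and PHTF2 (0.88). DYRK1A was most like PTPRK, AKAP13 and ZBTB34 (0.95 each), and DYRK1B, among 9926 genes, most like NUMBL, NEXN and MICOS10 (0.94 each). These correlations share the 6 groups and the scaling of the libraries and carry no test.

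SR proteins, the substrates of these kinases, were mostly lower with both compounds. Of 12 measured, 1 was called higher and 8 lower with AML874 at 8 h, 1 higher and 8 lower with AML874 at 24 h, 2 higher and 9 lower with SEL120-34A at 8 h, and 1 higher and 8 lower with SEL120-34A at 24 h. Of all genes, 19.7% were called higher and 19.9% lower in the first of these comparisons, 23.1% and 23.7% in the second, 22.4% and 22.6% in the third, and 19.1% and 18.6% in the last. The SR proteins had median log2 changes of -0.16, -0.20, -0.20 and -0.14 in that order, where the median of all genes was within 0.01 of 0. SRSF1, which promotes use of weak splice sites, averaged 162 ± 7.45 CPM with AML874 and 167 ± 6.24 CPM in SEL120-34A cells at 24 h, against 204 ± 5.17 CPM in DMSO (SD, n = 3 each), and fell, with log2 changes of -0.33 ± 0.03 (edgeR adjusted p = 7.47e-11) and -0.29 ± 0.03 (edgeR adjusted p = 2.35e-09). SRSF3, the smallest SR protein, fell with AML874 at 24 h (-0.26 ± 0.02), and SRSF8 fell with SEL120-34A at 24 h (-0.29 ± 0.04). SRSF5 was the SR protein that rose at 24 h, by 0.11 ± 0.02 with AML874 (edgeR adjusted p = 8.39e-05) and 0.08 ± 0.02 with SEL120-34A (edgeR adjusted p = 0.00538).

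Of 21 SR-related proteins and speckle components, 3 were called higher and 13 lower with AML874 at 8 h, 3 higher and 12 lower with AML874 at 24 h, 5 higher and 13 lower with SEL120-34A at 8 h, and 0 higher and 12 lower with SEL120-34A at 24 h. Among all genes 19.9%, 23.7%, 22.6% and 18.6% were called lower in that order, and 19.7%, 23.1%, 22.4% and 19.1% higher. The median log2 changes of these 21 were -0.10, -0.07, -0.21 and -0.08. CCNL2, a cyclin of nuclear speckles, rose by 0.16 ± 0.03 with AML874 at 24 h and was at -0.06 ± 0.03 with SEL120-34A at that time, and LUC7L3, a relative of a U1-binding protein, rose by 0.12 ± 0.02 with AML874. At 8 h both genes were called higher with both compounds. CCNL2 then rose by 0.35 ± 0.03 with AML874 and 0.24 ± 0.03 with SEL120-34A, and LUC7L3 by 0.12 ± 0.02 with each. TRA2B, a splicing activator, fell, with a log2 change of -0.24 ± 0.03 with AML874 at 24 h, and U2AF2, the larger subunit of the factor that binds the polypyrimidine tract, fell too (-0.29 ± 0.03). Their 8 h changes were larger, at -0.47 ± 0.03 with AML874 and -0.50 ± 0.03 with SEL120-34A for TRA2B. Those of U2AF2 were -0.42 ± 0.03 and -0.38 ± 0.03. Genes are named here by their 24 h values, so larger 8 h changes of other list members are not shown. SREK1 (-0.20 ± 0.03) and LUC7L (-0.23 ± 0.03) fell with SEL120-34A at 24 h. Of 15 U1 and U2 snRNP proteins, 4 were called higher and 3 lower with AML874 at 8 h, 1 higher and 2 lower with AML874 at 24 h, 4 higher and 4 lower with SEL120-34A at 8 h, and 1 higher and 3 lower with SEL120-34A at 24 h. Called in either direction were thus 7, 3, 8 and 4 of 15, beside 39.6%, 46.8%, 45.1% and 37.7% of all genes, and the list's median log2 change was within 0.04 of 0 each time. SF3B3, a subunit of U2 snRNP, fell, with a log2 change of -0.34 ± 0.03 with AML874 and -0.29 ± 0.03 in SEL120-34A cells at 24 h, and SNRPA1, the U2 protein A', fell too (-0.24 ± 0.03 with AML874 and -0.20 ± 0.03 with SEL120-34A). SNRPA, the U1 protein A, rose by 0.07 ± 0.03 with each compound.

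Phosphatases of the PP1 and PP2A families, which remove phosphates from SR proteins, were measured too. Of 7 catalytic subunits and nuclear regulators of PP1 and PP2A, 6 were called lower with AML874 at 8 h, 6 with AML874 at 24 h, 5 with SEL120-34A at 8 h and 5 with SEL120-34A at 24 h, and 0 higher in each. The shares of all genes called lower were 19.9%, 23.7%, 22.6% and 18.6% in that order, and the 7 genes had median log2 changes of -0.12, -0.20, -0.12 and -0.14. PPP1CB, a catalytic subunit of PP1, averaged 119 ± 1.56 CPM with AML874 and 126 ± 3.20 CPM in SEL120-34A cells at 24 h, against 140.5 ± 2.45 CPM in DMSO (SD, n = 3 each), with log2 changes of -0.24 ± 0.02 (edgeR adjusted p = 4.81e-10) and -0.16 ± 0.02 (edgeR adjusted p = 4.56e-06). PPP1R10, which anchors PP1 in the nucleus, fell, with a log2 change of -0.30 ± 0.03 with AML874 at 24 h, and PPP1CC, another catalytic subunit, fell with SEL120-34A (-0.14 ± 0.02).

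Of 13 other kinases of the same group 11 were measured, and 2 were called higher and 4 lower with AML874 at 8 h, 1 higher and 3 lower with AML874 at 24 h, 3 higher and 5 lower with SEL120-34A at 8 h, and 4 higher and 4 lower with SEL120-34A at 24 h. In either direction these were 6, 4, 8 and 8 of 11, beside 39.6%, 46.8%, 45.1% and 37.7% of all genes. Their median log2 changes were -0.08, -0.07, -0.06 and 0.08. DYRK4 rose by 0.15 ± 0.04 with AML874 at 24 h, and CDK12, a kinase of RNA polymerase II, rose by 0.19 ± 0.03 with SEL120-34A at 24 h, as did HIPK1 (0.14 ± 0.03). At 8 h HIPK1 was instead called lower, at -0.08 ± 0.03 with AML874 and -0.16 ± 0.03 with SEL120-34A. DYRK4 at 8 h was called higher with SEL120-34A (0.19 ± 0.04) and not called with AML874, and CDK12 was called with neither compound. HIPK3 fell, with a log2 change of -0.26 ± 0.03 with AML874 and -0.15 ± 0.03 in SEL120-34A cells at 24 h, and DYRK2 fell too (-0.21 ± 0.03 with AML874 and -0.14 ± 0.03 with SEL120-34A). Of 12 partners of DYRK1A and members of the DREAM complex, 1 was called higher and 7 lower with AML874 at 8 h, 1 higher and 5 lower with AML874 at 24 h, 3 higher and 6 lower with SEL120-34A at 8 h, and 2 higher and 4 lower with SEL120-34A at 24 h. Together 8, 6, 9 and 6 of the 12 were called, beside 39.6%, 46.8%, 45.1% and 37.7% of all genes, with median log2 changes of -0.10, -0.05, -0.08 and -0.02. E2F5, a repressor E2F, fell, with a log2 change of -0.58 ± 0.05 with AML874 and -0.60 ± 0.05 in SEL120-34A cells at 24 h, while RBL2, the pocket protein p130, rose by 0.13 ± 0.03 with AML874 and 0.11 ± 0.03 with SEL120-34A. TFDP1, a partner of E2F proteins, fell, with a log2 change of -0.23 ± 0.03 with AML874 and -0.16 ± 0.03 with SEL120-34A, and TFDP2, a further partner, rose by 0.20 ± 0.03 with SEL120-34A.

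The part of 3 further lists in the kinase values was not tested. Of 18 HIF targets, 8 were called lower with AML874 at each time and 7 with SEL120-34A at each time, and 0 higher, beside 19.9% of all genes called lower for AML874 at 8 h, 23.7% for AML874 at 24 h, 22.6% for SEL120-34A at 8 h and 18.6% for SEL120-34A at 24 h. Of 8 myeloid markers, 7 were measured: 1 was called higher and 4 lower with AML874 at 8 h, 1 higher and 6 lower with AML874 at 24 h, 1 higher and 6 lower with SEL120-34A at 8 h, and 1 higher and 5 lower with SEL120-34A at 24 h. Of 3 B cell markers, 2 were measured, and 1 was called lower and 0 higher in each of the 4 comparisons. The shares of all genes called higher in these comparisons were 19.7%, 23.1%, 22.4% and 19.1%, and those called lower were as for the HIF targets. CD34, a progenitor surface protein, rose by 3.12 ± 0.11 with AML874 and 3.41 ± 0.11 in SEL120-34A cells at 24 h, and MPO, the peroxidase of myeloid granules, fell, with a log2 change of -2.87 ± 0.07 with AML874 and -1.53 ± 0.06 with SEL120-34A. Both levels were low, at 0.27 to 3.94 TPM for CD34 and 1.93 to 16.7 TPM for MPO over all libraries. PECAM1 fell, with a log2 change of -0.48 ± 0.05 with AML874 and -0.35 ± 0.05 in SEL120-34A cells at 24 h, in libraries where the endothelial marker CDH5 had at most 3 counts.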

How the data were processed

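RNA was isolated with TRIzol and a column clean-up and selected for polyA, per the labels. STAR 2.7.1a, RSEM 1.3.2 and GRCh38 are named in the submitters' processing notes, and the annotation release is not given in the sources used here. Per library, the authors deposited read counts per gene (unstranded, forward and reverse, the layout of STAR gene counts) and RSEM gene results, which per the file headers hold expected counts, TPM and transcript lengths. The deposited counts and expected counts are unscaled, and the authors' TPM are scaled for length and depth. The weighted length is the deposited RSEM length column. Of 60609 identifiers, 60340 had a symbol and 58502 were in GENCODE 29, which gave positions and transcripts. Reads with several alignments held 6.36 to 6.75% and all summary lines 21.9 to 25.5% of each file, and these lines were left out. Forward counts were 6.27 to 6.66% of reverse counts, so reverse counts were used.

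Counts were filtered with filterByExpr, scaled by TMM and fitted with edgeR 4.0.16 (glmQLFit, robust) in 1 model of 6 groups, with Benjamini-Hochberg adjustment over 20920 genes. Printed CPM are TMM scaled. Log2 weighted length was tested with limma 3.58.1 (trend, robust) in genes with a mean of at least 1 TPM. On simulated data for AML874 against DMSO at 24 h (20301 genes), edgeR recovered 39 of 50 genes changed 1.25-fold and 48 of 50 changed 1.5-fold, with 16 false calls. That simulation changed 200 genes, against 9799 called in the data, so its figures need not hold there. The length test (11381 genes) recovered 30 of 50 shifts of 0.1 on the log2 scale, with 4 false calls. Alternatives were size factors by median of ratios, library totals, DESeq2 1.42.0, other count filters and columns, RSEM expected counts rounded to whole numbers, the replicate block, only the groups compared, a higher TPM minimum and each library left out. The members and gene lists were chosen with earlier results of these data known. From each other list the text names up to 2 genes per direction with the smallest p against DMSO at 24 h, and for each kinase the 3 most correlated genes with a mean of at least 5 CPM. Of the HIF targets and cell type markers that this rule picks, only CD34, MPO and PECAM1 are given with their changes. The most correlated pair of libraries, replicates 1 and 3 of SEL120-34A at 24 h, differed by more than sampling noise. No other pair was checked in this way. For AML874 against DMSO at 24 h the deviations from the group means of same-numbered libraries correlated at 0.41, 0.18 and 0.25, each above 0.1. There AML874 replicate 3 correlated with DMSO replicate 2 nearly as well, at 0.23. Over all comparisons of 2 groups the same number gave the closest match in 5 of 21 cases. Deviations within a group sum to 0, so these values cannot settle whether the numbers pair libraries. The main fits use no pairing. Protein sequences were not used here.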

Additional observations from a re-analysis of the deposited data

Results flagged for a closer look

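For 6 values the effect of a compound against DMSO differed between 24 h and 8 h by edgeR's interaction term, with a log2 difference given as 24 h minus 8 h. For SEL120-34A it was 0.39 in CLK1 and 0.19 in CLK4, where the rise over DMSO was larger at 24 h. It was 0.16 in SRPK1, whose effect was -0.18 at 8 h and -0.03, not called, at 24 h. It was -0.22 in CLK2, where the sign of the effect changed between the times, and -0.11 in CLK3, where the rise over DMSO was smaller at 24 h. For AML874 it was 0.18 in CLK4. Beside them, 27.3% of all genes for SEL120-34A and 23.6% for AML874 were called in the same term.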

How the results depend on the processing

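CLK1, CLK3 and CLK4 kept their direction and their calls against DMSO in all 28 alternative settings of all 4 comparisons. Counts of kinases called moved by over 1.5 times in some others. With library totals they were 4 for DMSO over time, 2 for the time term of AML874 and 3 for that of SEL120-34A. With RSEM expected counts the time term of AML874 had 0. Of genes called with library totals, 57.1% were higher for DMSO over time (46.7% with TMM), 30.7% for the time term of AML874 (47.1% with TMM) and 29.1% for that of SEL120-34A (52.2% with TMM). Leaving out the 4 libraries that stood apart in HIF targets, an alternative chosen after seeing the data that leaves 1 library in each of 2 groups, gave 5365 genes called for AML874 at 8 h, 4844 for SEL120-34A at 8 h, 3646 for AML874 against SEL120-34A at 8 h, and 3257 and 2871 for the time terms of AML874 and SEL120-34A. Kinases called were then 5 for SEL120-34A at 8 h, 3 between the compounds at 8 h, 1 for DMSO over time, and 0 and 2 for the time terms. Genes called for weighted length were then 295 for AML874 at 8 h, 425 for SEL120-34A at 8 h, 200 for SEL120-34A at 24 h, 75 and 11 between the compounds at 8 h and 24 h, and 34 for DMSO over time, and all 7 length calls of kinases were lost, the SRPK2 call among them. With 1 library left out, kinases called ran 5 to 8 for SEL120-34A at 8 h (5 without DMSO replicate 3 or SEL120-34A replicate 1), 3 to 5 between the compounds at 8 h (3 without AML874 replicate 1 or SEL120-34A replicate 1), 0 to 2 for the time term of AML874 (0 without DMSO at 8 h replicate 3, AML874 at 8 h replicate 3, DMSO at 24 h replicate 1, or AML874 at 24 h replicates 2 or 3, and 2 without AML874 at 8 h replicate 1) and 3 to 5 for that of SEL120-34A (3 without SEL120-34A at 8 h replicate 1, DMSO at 24 h replicate 1 or SEL120-34A at 24 h replicate 3). Genes called for weighted length ran 171 to 319 for AML874 at 24 h, 164 to 318 for SEL120-34A at 24 h, 256 to 467 between the compounds at 8 h, 6 to 36 between them at 24 h and 172 to 349 for DMSO over time, with counts moved by over 1.5 times without DMSO replicate 2 or any AML874 library at 24 h in the first, DMSO replicates 2 or 3 or any SEL120-34A library at 24 h in the second, AML874 replicates 1 or 2 or SEL120-34A replicates 1 or 3 at 8 h in the third, any AML874 library or SEL120-34A replicates 2 or 3 at 24 h in the fourth, and any DMSO library at 8 h or DMSO replicates 2 or 3 at 24 h in the last. With a minimum of 5 TPM the count between the compounds at 24 h was 47. Fewer libraries or genes enter these fits, and the cause of the other moves was not tested.

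The length call of CLK1 was lost for AML874 at 8 h without DMSO replicate 1 or AML874 replicates 1 or 3, for SEL120-34A at 8 h without DMSO replicate 1 or SEL120-34A replicates 2 or 3, and for SEL120-34A at 24 h without SEL120-34A replicates 2 or 3 (limma adjusted p up to 0.0604 with 1 library left out). That of CLK4 was lost for AML874 at 8 h without DMSO replicate 1 or AML874 replicate 2, for SEL120-34A at 8 h without DMSO replicates 1 or 3 or SEL120-34A replicates 2 or 3, and for SEL120-34A at 24 h without DMSO replicates 2 or 3 or SEL120-34A replicates 1 or 2 (limma adjusted p up to 0.132 with 1 library left out). In the 6 comparisons other than AML874 against DMSO at 24 h, same-numbered libraries did not all deviate together (correlations of -0.56 to 0.37 over 18 pairs, 2 above 0.1). With the replicate block AML874 against DMSO at 24 h had 9674 genes called, 4 kinases called and 284 genes called for weighted length, and no kinase's call changed. With the replicate block 7 kinases were called for SEL120-34A at 8 h, 4 in its time term, and as many as without the block in the other 7 comparisons. The CLK4 length call for SEL120-34A at 8 h was lost with it (limma adjusted p = 0.0571). DYRK1B, with 279 to 443 counts a library, is the kinase that depth limits most.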
